A study of Mus musculus with 7 samples.

Results

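The cytosolic ribosomal protein genes of the deposited table were chosen by name: every row whose mouse symbol is Rpl or Rps with a number, optionally the letter a, x or l and a further digit, together with Rplp0, Rplp1, Rplp2 and Rpsa. Symbols holding -ps, which mark pseudogenes, and the Rps6k kinases were left out. The rule found 89 of 57010 gene rows, 53 for the large and 36 for the small ribosomal subunit. Of these, 77 are core genes of the ribosome (46 large, 31 small) and 12 carry a symbol of a paralog or copy: Rpl3l, Rpl6l, Rpl7l1, Rpl10l, Rpl22l1, Rpl32l, Rpl39l, Rps3a2, Rps3a3, Rps4l, Rps12l1 and Rps27l. Although the rule leaves out symbols with -ps, 5 of these 12 (Rpl6l, Rpl32l, Rps3a2, Rps3a3 and Rps12l1) are typed as processed pseudogenes in the GENCODE M21 annotation and Rps4l as a processed transcript.

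The study compared mature white adipocytes of perigonadal fat between floxed control mice and mice lacking the short-chain fatty acid receptor FFA2 (gene Ffar2) in adipocytes. RNA was sequenced from 3 FFA2 fl/fl controls and 4 Adipoq-F2-KO mice. Both genotypes carry the floxed FFA2 allele, and Adipoq-F2-KO mice also carry Cre recombinase under the adiponectin promoter, which acts in adipocytes and not in the other cells of fat. All were untreated male littermates housed together on Teklad LM-485 normal chow and, per the labels, 20 weeks old.

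Each ribosome is built from ribosomal RNA and a single copy of most of these proteins, with the acidic P-stalk proteins as the known exception. Ribosomal protein mRNAs are short and abundant, and most begin with a C and a run of pyrimidines, the 5′ terminal oligopyrimidine (TOP) motif. Through this motif mTORC1 and the RNA-binding protein LARP1 control how strongly the mRNAs are translated and how long they are kept, which a count of mRNA reads does not show directly.

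RefSeq start sites (GRCm38.p6) were found for 64 members. Windows of 30 bases are shown for members described later whose libraries separated by genotype, with 15 bases on each side of the start. Capitals mark the longest tract of a C followed by 5 or more bases that are each C or T, read on the gene's strand. For Rpl34, the first of 2 listed starts is shown. No start was found for Rpl21, which also separated.
Rpl34, chr3:130730323-130730352, minus strand: CCTTCCTTTTCCTCTTCCggggacggtgct
Rps15a, chr7:118116133-118116162, minus strand: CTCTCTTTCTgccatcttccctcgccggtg
Rpl22l1, chr3:28805493-28805522, plus strand: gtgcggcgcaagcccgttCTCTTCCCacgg
Rpl38, chr11:114668565-114668594, plus strand: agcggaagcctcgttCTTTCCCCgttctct
Rps18, chr17:33955651-33955680, minus strand: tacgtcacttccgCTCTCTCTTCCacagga
Rpl41, chr10:128549154-128549183, minus strand: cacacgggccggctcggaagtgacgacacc
Rps16, chr7:28350674-28350703, plus strand: cccgcttctgtcgtgacgtagcactcaatg

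The tract was present in Rpl34, Rps15a, Rpl22l1, Rpl38 and Rps18, and these letters did not occur in the windows of Rpl41 and Rps16. Among the 64 members with a listed start, 37 (57.8%) held such a tract in a window, against 25.5% of 27025 genes with a listed start. The sequence CCGGAAG, the core of sites bound by ETS factors, occurred on either strand in the 300-base promoter window of 40.6% of these members and 9.93% of all genes. The sequence TATAAA occurred on either strand in 12.5% of them and 15.7% of all genes. Any of a gene's listed starts could supply the match. A tract could also lie before the start, as in Rps15a, so the tract shares are not shares of TOP mRNAs.

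Ffar2, the targeted gene, had 34.5 ± 2.77 normalized counts per 1000000 counts (CPM, mean ± SD, n = 3) in FFA2 fl/fl and 1.69 ± 0.634 (n = 4) in Adipoq-F2-KO libraries, a log2 fold change of -4.36 (adjusted p = 7.97e-06, edgeR quasi-likelihood test). The libraries held 30478997 to 39992605 counts, and a gene at 0 counts may still be present at 0.150 to 0.197 CPM, the level that 6 counts (3 fragments) would give. All 14 markers of adipocytes were measured at summed levels of 77662 to 85433 CPM in FFA2 fl/fl and 62694 to 78147 CPM in Adipoq-F2-KO libraries, with 0 of 14 log2 fold changes above 0, 0 called by edgeR, 6 lower at an unadjusted p under 0.05 and 3 lower in DESeq2. Of 16 tested macrophage markers, 14 had log2 fold changes above 0 and edgeR called 2 higher (Lyz2 and Cd68), while 12 were higher and 1 lower at an unadjusted p under 0.05 and DESeq2 called 10 higher, with summed levels of 670 to 793 CPM in FFA2 fl/fl and 893 to 1083 CPM in Adipoq-F2-KO libraries. All 10 endothelial markers had log2 fold changes above 0, with 0 called by edgeR, 8 higher at an unadjusted p under 0.05 and 5 higher in DESeq2, and their summed levels were 1027 to 1370 CPM against 1450 to 2316 CPM. Of 12 fibroblast progenitor markers, 10 were above 0, 5 of them higher at an unadjusted p under 0.05 and 2 in DESeq2 (1376 to 1755 and 1737 to 2113 CPM), and of 5 tested erythroid genes 5 were above 0 and 2 higher at an unadjusted p under 0.05 (98 to 224 and 209 to 372 CPM). EdgeR called 0 in both lists. Among 8 mesothelial markers, 3 were above 0, with 1 higher and 2 lower at an unadjusted p under 0.05 and 0 called by either tool. The lower ones, Krt8 and Krt19, were highest in FFA2 fl/fl library 1, which had 31.1 and 18.7 CPM against at most 9.40 and 4.44 CPM in the other libraries. In 6 further lists edgeR called 0. At an unadjusted p under 0.05, 1 of 3 neutrophil, 1 of 4 T and NK cell, 4 of 7 male germ cell and 2 of 18 tissue dissociation genes were higher, as were 0 of 7 B cell and 0 of 2 epididymal epithelium genes, and DESeq2 called 1, 1, 3, 0, 0 and 0 in that order. Beside these marker counts, edgeR called 1.02% of all tested genes and DESeq2 5.82%. At an unadjusted edgeR p under 0.05, 10.5% of all tested genes were higher and 7.37% lower. None of the macrophage, endothelial, fibroblast progenitor or erythroid markers was at 0 counts in all libraries. In such RNA, fewer cells of a type and less RNA per cell cannot be told apart. The part of these markers in the values below was not tested.

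Summed over the family, the mean share of counts from ribosomal protein mRNAs differed between the genotypes by less than the range over the Adipoq-F2-KO mice. With all counts, the difference was wider than the range over the FFA2 fl/fl mice, whose shares lay closer together. Between 1.37% and 1.48% of the counts in a library came from the 89 genes. The share was 1.45% in FFA2 fl/fl library 1, 1.45% in library 2 and 1.43% in library 3. It was 1.41%, 1.37%, 1.48% and 1.37% in Adipoq-F2-KO libraries 1 to 4, so the genotypes overlapped. Genes of the mitochondrial chromosome took 4.41% to 5.77% of the counts in FFA2 fl/fl and 6.61% to 10.3% in Adipoq-F2-KO libraries, and the unnamed gene ENSMUSG00000119584 took 0.619% to 6.76% over all 7 libraries. With these left out of the total, the share was 1.52% to 1.59% in FFA2 fl/fl and 1.53% to 1.65% in Adipoq-F2-KO libraries. The difference between the genotype means (Adipoq-F2-KO minus FFA2 fl/fl) was then 0.0474 percentage points, and -0.0363 with all counts, so its sign depended on the total used.

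The subunits kept their proportion. The large subunit supplied 60.3% to 61.1% of the family's counts in every library and the small subunit the remainder, 38.9% to 39.7%. The summed normalized level of the 53 large-subunit genes was 8708 ± 138 CPM (SD, n = 3) in FFA2 fl/fl and 8604 ± 288 CPM (n = 4) in Adipoq-F2-KO libraries. For the 36 small-subunit genes the sums were 5600.2 ± 156 CPM and 5585 ± 256 CPM. Core genes held at least 98.9% of the family's counts in every library, and the 12 paralogs and copies together at most 1.08%.

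**Figure D1:**
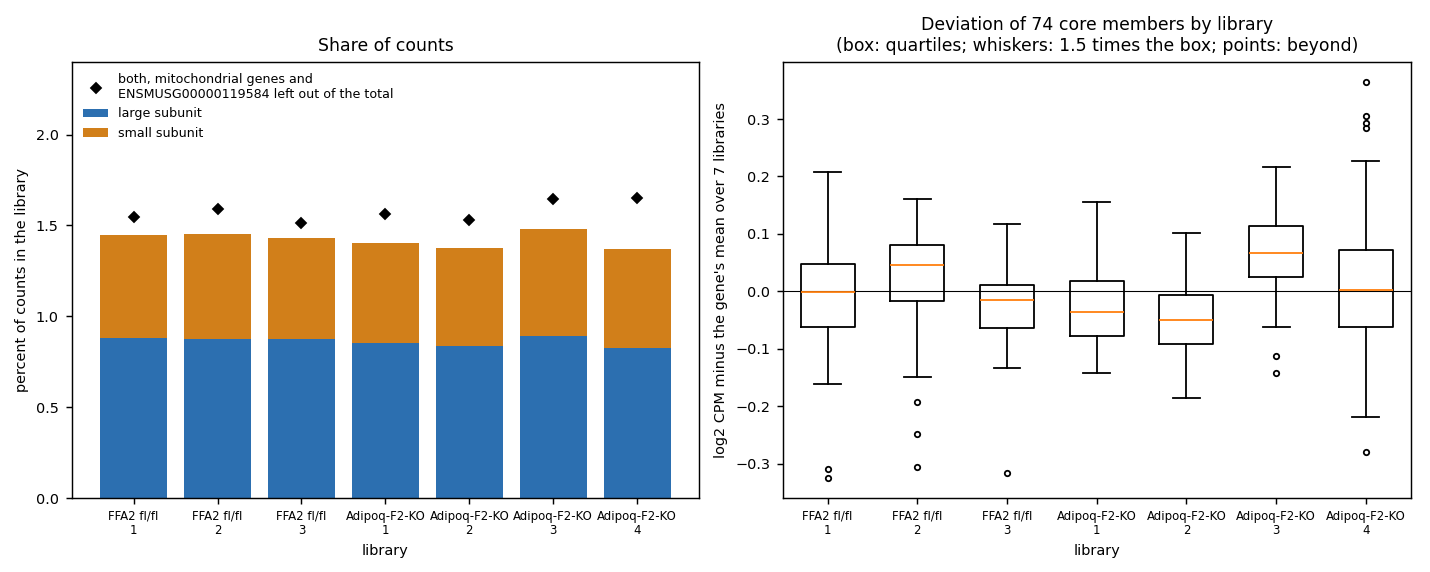
Left, percent of each library's counts from large-subunit (blue) and small-subunit (orange) genes, with diamonds for the family's share when mitochondrial genes and ENSMUSG00000119584 are left out of the total. Right, for 74 core members, log2 CPM in a library minus the gene's mean over 7 libraries: medians lie between -0.05 and 0.07, and Adipoq-F2-KO library 4 has the widest spread.

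Of the 89 members, 85 had enough counts to be tested (all 77 core genes and 8 of 12 paralogs and copies). At an adjusted p under 0.05 (edgeR quasi-likelihood test, Benjamini-Hochberg over 17039 genes) 0 members were called, where 1.02% of all tested genes were. At an unadjusted p under 0.05 there were 4 members (4.71%), against 17.9% of all tested genes. Of these, 4 lay above the controls and 0 below, where 10.5% of all tested genes were higher and 7.37% lower. DESeq2 called 2 members, Rpl34 and Rps15a, both higher, where it called 5.82% of all genes and 4.34% as higher.

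Log2 fold changes (Adipoq-F2-KO over FFA2 fl/fl) were above 0 for 42 tested members (50.4% of all tested genes were) and below 0 for 43, with a median of -0.0013, against 0.0037 over all tested genes. Their quartiles were -0.05 and 0.05, and those of all tested genes -0.19 and 0.31. The range ran from -0.34 for Rps4l to 0.53 for Rps10, and both ends depended on single libraries. Without FFA2 fl/fl library 1, Rps4l stood at -0.18 and Rps10 at 0.24, and with the counts of named pseudogenes added Rps10 stood at 0.09. Genes of the large subunit had a median of -0.012 (50 tested) and genes of the small subunit 0.0035 (35 tested). The measurement was also tight: the median standard error of the log2 fold change was 0.0894 for members and 0.188 for all tested genes. Standard errors and intervals depend on abundance, which was not alike. Above 20 CPM lay 74 core members, but only 6432 of 17039 tested genes. The 95% confidence interval lay inside a 1.25-fold change in either direction for 64 of 85 tested members and 1989 of 17039 tested genes. It lay inside a 1.5-fold change for 77 members (90.6%), against 42.1% of all tested genes. The remaining 8 were not bounded so closely, and a p above the threshold does not show that they were equal.

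**Figure D2:**
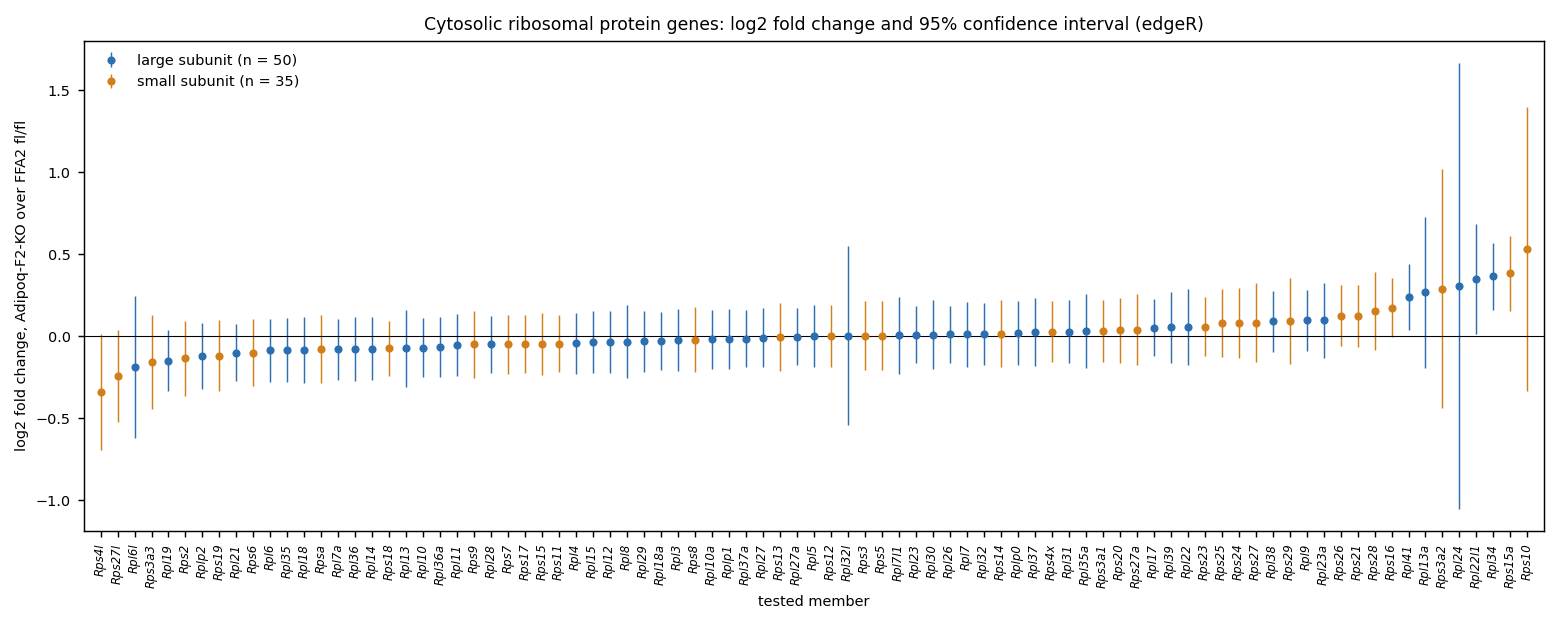
Log2 fold change (points) with 95% confidence interval (lines) of the 85 tested members in order, large subunit in blue (50) and small in orange (35). The quartiles of the points are -0.05 and 0.05, and the intervals of Rpl34, Rps15a, Rpl41 and Rpl22l1 lie wholly above 0, while Rpl24 and Rps10, at low counts, have the widest.

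Separation of the libraries gave a similar picture. For 8 tested members (9.41%) every Adipoq-F2-KO library lay on the same side of every FFA2 fl/fl library, against 17.6% of all tested genes. Of these, 6 were higher in Adipoq-F2-KO (Rpl34, Rps15a, Rpl41, Rpl22l1, Rps16 and Rpl38) and 2 lower (Rpl21 and Rps18), where 8.86% of all tested genes were separated upward and 8.72% downward. This count depended on single libraries: it was 16 (18.8%) when FFA2 fl/fl library 2 was left out, 14 (16.5%) when FFA2 fl/fl library 3 was, and 18 (21.2%) when Adipoq-F2-KO library 3 was. The shares of all tested genes with the same libraries left out were 28.2%, 24.2% and 25.6%. Of the 18 members, 12 (14.1%) were lower, where 12.3% of all tested genes were. Without FFA2 fl/fl library 1 the count was 10 (23.3% of all tested genes), and without Adipoq-F2-KO library 1, 2 or 4 it was 9 (25.0%, 22.6% and 21.2% of all tested genes).

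Rpl34, a protein of the large subunit, gave the smallest p-value of the family. It had 51.7, 54.0 and 61.0 CPM in FFA2 fl/fl libraries 1 to 3 and 68.1, 68.9, 74.5 and 74.96 CPM in Adipoq-F2-KO libraries 1 to 4. All 4 Adipoq-F2-KO libraries were above all controls. The log2 fold change was 0.37 (standard error 0.0929, 95% confidence interval 0.16 to 0.57), which did not pass the edgeR test (adjusted p = 0.0835, higher in 4 of 4 libraries). DESeq2 gave the same change an adjusted p of 0.0125, and edgeR one of 0.0398 with a filter of at least 1 count, under which 4.92% of all genes were called and 3.76% were called higher. Over all alternatives the log2 fold change lay between 0.32 and 0.45 and the adjusted p between 0.0125 and 0.345.

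Rps15a, a small-subunit protein, had 50.7, 55.6 and 58.0 CPM in FFA2 fl/fl libraries and 64.2, 66.8, 72.7 and 81.8 CPM in Adipoq-F2-KO libraries. Adipoq-F2-KO library 4 was the highest, and the genotypes did not overlap. The log2 fold change was 0.38 (standard error 0.105, edgeR adjusted p = 0.104), with an adjusted p of 0.0246 in DESeq2 and of 0.0304 with the filter of at least 1 count. Leaving out Adipoq-F2-KO library 4 gave a log2 fold change of 0.31 (edgeR adjusted p = 0.138). Over all alternatives its adjusted p lay between 0.0246 and 0.365.

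Rpl41 encodes the smallest protein of the ribosome, with a coding sequence of 75 bases. Its levels were 264, 224 and 269 CPM in FFA2 fl/fl libraries, the lowest in library 2, and 308, 297, 299 and 287 CPM in Adipoq-F2-KO libraries. The log2 fold change of 0.24 (standard error 0.0917) had an edgeR adjusted p of 0.206, and between 0.0958 and 0.468 over the alternatives. Rpl22l1, the paralog of Rpl22, had 11.9, 12.0 and 8.61 CPM in FFA2 fl/fl and 13.3, 12.6, 13.8 and 15.5 CPM in Adipoq-F2-KO libraries. FFA2 fl/fl library 3 was the lowest, and without it the log2 fold change went from 0.35 to 0.22 (edgeR adjusted p = 0.261 and 0.572).

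Of the other separated members, Rps16 had 161, 173 and 171 CPM against 186, 194, 199 and 181 CPM (log2 fold change 0.17, edgeR adjusted p = 0.298). Rpl38, whose loss is known in mice for skeletal patterning defects, had 50.8 to 53.4 CPM in FFA2 fl/fl and 53.5 to 57.4 CPM in Adipoq-F2-KO libraries (log2 fold change 0.09). These ranges nearly touch. In the other direction, Rpl21 had 248 to 259 CPM in FFA2 fl/fl and 226 to 243 CPM in Adipoq-F2-KO libraries (log2 fold change -0.10), and Rps18 had 151 to 156 and 142 to 149 CPM (log2 fold change -0.07). None of these passed the edgeR test.

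**Figure D3:**
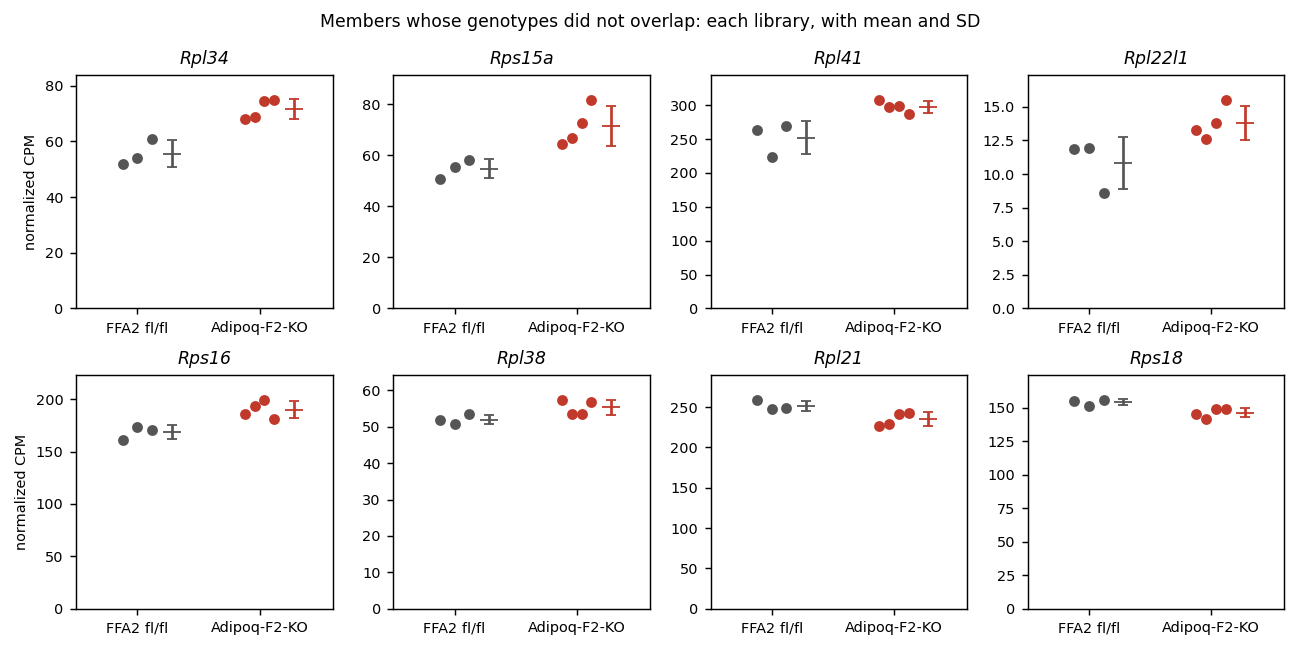
Normalized CPM of the 8 members whose genotypes did not overlap, by genotype (grey, 3 FFA2 fl/fl; red, 4 Adipoq-F2-KO), with a point per library and the mean and SD beside them; every axis starts at 0. For Rpl34 the controls end at 61.0 CPM and the Adipoq-F2-KO libraries begin at 68.1 CPM, while for Rpl38 the ranges nearly touch.

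Among the other members with small p-values, Rps21 had a log2 fold change of 0.12 and Rps26 of 0.12, and Rpl19 of -0.15. The edgeR adjusted p of these was 0.479, 0.474 and 0.389. The lowest log2 fold changes were those of paralogs and copies: Rps4l at -0.34 (adjusted p = 0.295), Rps27l at -0.24 (0.348), Rpl6l at -0.19 (0.661) and Rps3a3 at -0.16 (0.559), all from edgeR. Their ranges overlapped between the genotypes.

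The 3 P-stalk genes, Rplp0, Rplp1 and Rplp2, encode the stalk that recruits elongation factors and supplied 9.81% to 10.4% of the family's counts in each library. Rplp0 had 467, 510 and 478 CPM in FFA2 fl/fl and 488, 460, 533 and 484 CPM in Adipoq-F2-KO libraries (log2 fold change 0.02). Rplp1 had 514 to 519 CPM in FFA2 fl/fl and 483 to 539 CPM in Adipoq-F2-KO libraries (log2 fold change -0.02). Rplp2 had 411 to 493 CPM and 390 to 434 CPM (log2 fold change -0.12). The genotypes overlapped for all 3, and none was called.

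Members with further known roles were likewise near 0. Rpl5 and Rpl11, which form the 5S ribonucleoprotein and can bind the p53 inhibitor MDM2, had log2 fold changes of -0.0013 (95% confidence interval -0.19 to 0.19) and -0.05 (-0.24 to 0.13). Rps6, the substrate of S6 kinase, had 216 to 239 CPM in FFA2 fl/fl and 191 to 233 CPM in Adipoq-F2-KO libraries (log2 fold change -0.10, -0.30 to 0.10). Rpsa, which is also described as a laminin receptor, had 432 to 461 and 387 to 473 CPM (log2 fold change -0.08). Rps27a, made as a fusion with ubiquitin, had 108 to 120 and 105 to 129 CPM (log2 fold change 0.04).

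Levels were compared between members per kilobase (kb) of the exonic length given in the deposited table, as the mean over all 7 libraries. The order was led by Rplp1 at 1027 CPM per kb, Rpl36 at 419, Rps15 at 407, Rplp0 at 294 and Rps3a1 at 250.5. At the other end of the tested members stood Rps10 at 0.723, Rpl24 at 0.774, Rps3a2 at 2.30, Rpl13a at 2.63 and Rpl22l1 at 6.29 CPM per kb. Of the 84 pairs of neighbours in the order, 77 overlapped over the 7 libraries and 7 did not. For 74 core members above 20 CPM, the quartiles were 55.0 and 141 CPM per kb and the highest was 100-fold above the lowest, Rps15a.

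The exonic length sums every annotated exon, including those of transcripts with retained introns. It was between 1 and 13.4 times (median 2.35) the length of a single coding transcript in GENCODE M21. The transcript taken was the shortest tagged as a principal isoform. Where none was tagged, as for Rpl41 and Rps24, it was the shortest with a coding sequence. For Rpl7 this was a transcript of 838 bases, all coding. For Rpl26 it had 500 bases, with 191 before the coding sequence, 309 coding and none after. Both may be incomplete, and both entered the per-transcript order and the correlations with coding length and GC content below. Per kb of the transcript taken, the order was led by Rplp1 at 1027, Rplp2 at 1018, Rpl41 at 637, Rps24 at 570 and Rps15 at 513 CPM per kb. The highest of the 74 was then 30.2-fold above the lowest, Rps20, whose transcript was 3706 bases long with 357 coding bases. Both orders shared 6 of the 10 highest members. Rplp2 moved from rank 9 to rank 2, next to its partner Rplp1.

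**Figure D4:**
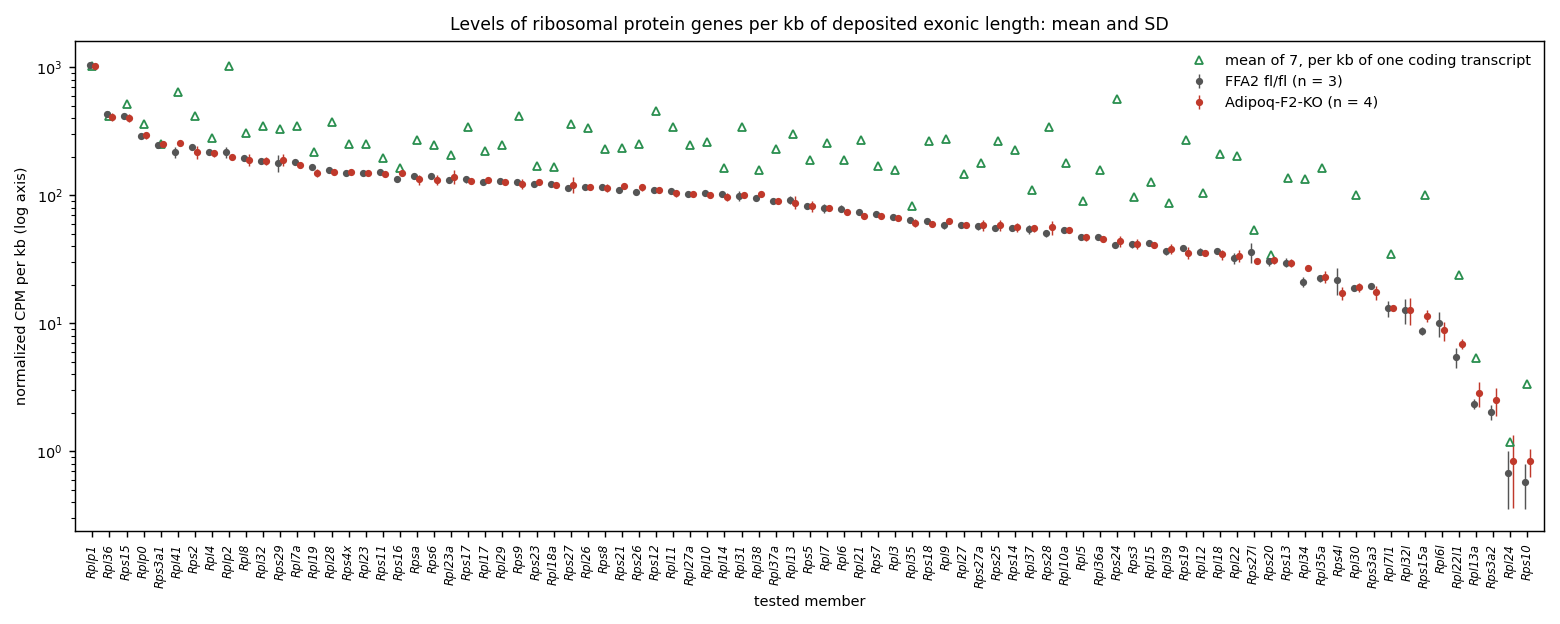
Normalized CPM per kb of deposited exonic length (log axis) for the 85 tested members in order, as mean and SD in FFA2 fl/fl (grey, n = 3) and Adipoq-F2-KO (red, n = 4) libraries. Green triangles give the mean of all 7 libraries per kb of a single coding transcript, where the annotation has one. Levels run from 1027 CPM per kb for Rplp1 to 0.723 for Rps10, and among the members whose bars are apart is Rps15a, with means of 8.73 (controls) and 11.4 (Adipoq-F2-KO).

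The values of 3 core genes stood far below the rest, although their proteins are part of every ribosome. Rps10 had 0.748 to 2.37 CPM, Rpl24 0.351 to 1.56 CPM and Rpl13a 4.56 to 7.93 CPM over the 7 libraries, while the next lowest core member by level per kb, Rps15a, had 50.7 to 81.8 CPM. In the deposited table, 47.0% of the exonic bases of Rpl24 lie on the same strand as exons of Gm28037, 35.4% of those of Rpl13a under Gm45713 and other rows, and 20.6% of those of Rps10 under RPS10-NUDT3. The rows Gm28037, Gm45713 and RPS10-NUDT3 had 0 counts in all 7 libraries. How the counting treated reads on overlapping or repeated genes is not given in the sources used here, and its part in these low values was not tested. Their log2 fold changes had wide intervals, -1.05 to 1.67 for Rpl24, -0.34 to 1.40 for Rps10 and -0.19 to 0.73 for Rpl13a.

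Paralogs were compared with their partners. Rps27 and Rps27l differ at 60 of 252 coding bases, as the first 90 coding bases from GENCODE M21 show, with capitals at the 24 that differ.
Rps27: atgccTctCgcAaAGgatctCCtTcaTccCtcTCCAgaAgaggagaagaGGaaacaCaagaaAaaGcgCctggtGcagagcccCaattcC
Rps27l: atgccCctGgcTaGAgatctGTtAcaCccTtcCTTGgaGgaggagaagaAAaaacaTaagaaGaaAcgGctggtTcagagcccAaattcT

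Rps27 had 117 to 123 CPM in FFA2 fl/fl and 112 to 152 CPM in Adipoq-F2-KO libraries, highest in library 4 (log2 fold change 0.08). Rps27l, a p53 target, had 31.9, 23.1 and 33.1 CPM in FFA2 fl/fl and 24.8, 24.6, 25.7 and 24.2 CPM in Adipoq-F2-KO libraries (log2 fold change -0.24, 95% confidence interval -0.53 to 0.04). FFA2 fl/fl library 2 alone among the controls lay below all Adipoq-F2-KO libraries. Per kb of exonic length, Rps27 stood at 118 and Rps27l at 32.8 CPM per kb.

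Rpl22 stood at 33.1 CPM per kb (85.8 to 104 CPM in FFA2 fl/fl, 88.0 to 112 CPM in Adipoq-F2-KO libraries) and its paralog Rpl22l1 at 6.29. Rpl7 stood at 79.4 and Rpl7l1 at 13.1 CPM per kb, with log2 fold changes of 0.01 and 0.0060. Rps4x, on the X chromosome, stood at 151 and the copy Rps4l at 19.2 CPM per kb, where Rps4l had 21.9 to 35.5 CPM in FFA2 fl/fl and 19.3 to 25.1 CPM in Adipoq-F2-KO libraries. Rpl36a had 76.0 to 81.6 and 72.2 to 79.4 CPM (log2 fold change -0.07), and Rpl36al, a copy whose symbol lies outside the rule, 0.587 to 1.31 and 0.271 to 1.00 CPM.

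Paralogs known from muscle or testis were near or below detection. Rpl3l, the striated muscle form of Rpl3, had 0, 4 and 2 counts in FFA2 fl/fl and 10, 0, 8 and 10 counts in Adipoq-F2-KO libraries, while Rpl3 had 198 to 225 CPM. Rpl10l and Rpl39l, forms used in the male germ line, had at most 4 and 6 counts in any library, while Rpl10 had 197 to 221 CPM and Rpl39 49.3 to 60.9 CPM. The 4 counts of Rpl10l were all in Adipoq-F2-KO library 2, where the sperm protamine gene Prm2 stood at 54.1 CPM, against at most 5.31 CPM in the other libraries. Rpl39l did not follow Prm2, with 2, 2, 0 and 6 counts in Adipoq-F2-KO libraries 1 to 4 and 0 in each FFA2 fl/fl library. Prm2 stood at 1.49 CPM in Adipoq-F2-KO library 4. The source of these few counts was not tested. Rps12l1 had 0 counts in all 7 libraries, and its sequence is 100% identical to the coding sequence of Rps12 over 396 bases. These 4 were the members not tested.

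Near-identical copies carry uncertain counts, because the authors' counting may have split or dropped reads between them. Rps3a2 and Rps3a3 are 99.5% and 99.0% identical to the coding sequence of Rps3a1 and had 1.41 to 2.41 and 12.0 to 16.1 CPM, while Rps3a1 had 226 to 257 CPM. Rpl6l is 98.7% identical to Rpl6, and Rpl32l 97.5% identical to Rpl32. Their log2 fold changes were 0.29 for Rps3a2, -0.16 for Rps3a3 and -0.19 for Rpl6l. A total of 299 rows were named pseudogenes of members, of which 194 had a count, and they held 0.0409% to 0.0443% of the counts in a library.

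The level of the family varied between libraries of the same genotype. Among 74 core members above 20 CPM, 24 had their highest CPM in Adipoq-F2-KO library 3, 21 in Adipoq-F2-KO library 4 and 16 in FFA2 fl/fl library 2. The lowest value was in Adipoq-F2-KO library 2 for 20 members, in Adipoq-F2-KO library 1 for 16, and in FFA2 fl/fl library 1 and Adipoq-F2-KO library 4 for 12 each. The median deviation from a gene's mean was 0.07 on the log2 scale in Adipoq-F2-KO library 3 and -0.05 in Adipoq-F2-KO library 2. The SD of log2 CPM over the 7 libraries had a median of 0.0884 for these members and of 0.162 for the 6432 tested genes above 20 CPM.

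In Adipoq-F2-KO library 4 the family spread the most, with an SD of 0.129 over the members' log2 deviations against 0.0637 to 0.0894 in the other 6. Rps15a stood 0.37 above its mean there and Rps27 0.31, while Rpl13 deviated by -0.28. The 21 members that were highest there had a median coding length of 351 bases and a median coding GC content of 50.8%, and the 12 that were lowest there had 558 bases and 56.6%. Across the 74 members, the deviation in this library had a Pearson correlation of -0.50 with coding GC content. With the log2 of coding length it was -0.44. In the other 6 libraries the correlation with GC content ran from -0.34 (Adipoq-F2-KO library 2) to 0.51 (Adipoq-F2-KO library 1). That with the log2 of coding length ran from -0.43 (Adipoq-F2-KO library 2) to 0.64 (FFA2 fl/fl library 2). The log2 fold change between genotypes had correlations of -0.33 and -0.46 with the same properties. These are across genes that share libraries and base composition, so they are descriptions alone.

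Other parts of the translation machinery were read from the same fit. For the counts below, edgeR called 1.02% of all tested genes and DESeq2 5.82%. At an unadjusted edgeR p under 0.05, 10.5% of all tested genes were higher and 7.37% lower. Among ribosomal proteins whose symbols fall outside the naming rule, Fau, made as a fusion with a ubiquitin-like protein, had 147 to 159 and 131 to 162 CPM, and Rack1 had 199 to 218 and 200 to 234 CPM. For 20 translation factors and other genes known for TOP mRNAs the median log2 fold change was -0.07, 8 were above 0 and 0 were called by edgeR or DESeq2, with 2 at an unadjusted p under 0.05, both lower. Eef1a1, the most abundant of them, had 3024 to 3160 and 2932 to 3250.2 CPM (log2 fold change 0.0013), and Naca, a subunit of the nascent polypeptide-associated complex, 149 to 158 and 129 to 138 CPM (log2 fold change -0.18, edgeR adjusted p = 0.273). Eif3l, a subunit of the initiation factor that binds the small subunit, had 180 to 187 and 150 to 169 CPM (log2 fold change -0.18, edgeR adjusted p = 0.279).

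Of 31 other initiation factors, 13 had log2 fold changes above 0 and edgeR called 1 higher, with 5 higher and 5 lower at an unadjusted p under 0.05 and 3 higher and 1 lower in DESeq2. Eif4a2, an RNA helicase of the cap-binding complex whose introns hold small nucleolar RNAs, had 173, 175 and 175 CPM in FFA2 fl/fl and 236, 262, 278 and 247 CPM in Adipoq-F2-KO libraries. It rose by 0.55 on the log2 scale (standard error 0.0877, edgeR adjusted p = 0.0332, higher in 4 of 4 libraries). Its end overlaps the gene Rfc4, so its count is uncertain where strand was not used. Eif4g2, the most abundant of this list, had 919 to 944 and 933 to 1041 CPM (log2 fold change 0.07, edgeR adjusted p = 0.707). Of 86 ribosome biogenesis factors, 40 were above 0 and 0 were called by edgeR, with 13 higher and 8 lower at an unadjusted p under 0.05 and 5 higher and 2 lower in DESeq2. Among them Nmd3, the export adaptor of the large subunit, had 13.6 ± 1.24 (SD, n = 3) and 20.1 ± 1.57 (n = 4) CPM (edgeR adjusted p = 0.0536, DESeq2 adjusted p = 0.00273). Bms1, a GTPase of small-subunit assembly, had 57.8 ± 1.27 and 44.1 ± 3.54 CPM (edgeR adjusted p = 0.0678, DESeq2 adjusted p = 0.0081). Myc, the transcription factor that drives ribosome synthesis and the most abundant of the list, had 311 to 395 and 383 to 520 CPM (log2 fold change 0.29, edgeR adjusted p = 0.256).

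Among 32 regulators of TOP translation and mTORC1, 8 were above 0, with a median of -0.15 and 0 called by edgeR. At an unadjusted p under 0.05, 3 were higher and 9 lower, and DESeq2 called 2 higher. Larp4, an RNA-binding protein of the LARP family, had 42.0 to 47.5 and 53.5 to 61.0 CPM (log2 fold change 0.34, edgeR adjusted p = 0.104, DESeq2 adjusted p = 0.0235). Ddit4, an inhibitor of mTORC1 induced by stress, had 22.5 to 26.1 and 25.2 to 39.4 CPM, so the genotypes overlapped (log2 fold change 0.50, edgeR adjusted p = 0.130, DESeq2 adjusted p = 0.0418). Eif4ebp1, the inhibitor of cap-dependent initiation that mTORC1 phosphorylates, had 406 to 426 and 265 to 365 CPM (log2 fold change -0.31, edgeR adjusted p = 0.184).

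Noncoding host genes of small nucleolar RNAs, several of which are TOP transcripts, had 13 of 14 tested log2 fold changes above 0, with a median of 0.40. None was called by edgeR (0 of 14), 6 had an unadjusted p under 0.05, all higher, and DESeq2 called 2 higher. Gas5 had 44.7, 53.6 and 44.1 CPM in FFA2 fl/fl and 58.3, 63.6, 60.3 and 61.8 CPM in Adipoq-F2-KO libraries (log2 fold change 0.36, edgeR adjusted p = 0.0989, DESeq2 adjusted p = 0.0205). Snhg1 had 6.54 to 9.50 and 9.61 to 18.4 CPM (log2 fold change 0.73, edgeR adjusted p = 0.132, DESeq2 adjusted p = 0.0399). Neither gene's libraries overlapped between the genotypes.

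Of 21 genes of ribosome stress and quality control, 7 were above 0 (median -0.09) and 0 were called by edgeR, with 3 higher and 3 lower at an unadjusted p under 0.05 and 2 higher in DESeq2. Mdm2 had 46.5 to 53.4 and 63.0 to 69.7 CPM (log2 fold change 0.41, edgeR adjusted p = 0.0577, DESeq2 adjusted p = 0.00254). The cell cycle inhibitor Cdkn1a had 95.9 to 122 and 128 to 222 CPM (log2 fold change 0.70, edgeR adjusted p = 0.0654, DESeq2 adjusted p = 0.00123). Rnf10, a ubiquitin ligase that acts on small-subunit proteins and the most abundant of the list, had 390 to 435 and 337 to 402 CPM (log2 fold change -0.16, edgeR adjusted p = 0.387). Of 14 chaperones and importers of ribosomal proteins, 4 were above 0, with a median of -0.05, 0 called by edgeR or DESeq2 and 1 lower at an unadjusted p under 0.05. This was Tsr2, the chaperone of Rps26, with 18.8 to 26.0 and 15.1 to 18.9 CPM (log2 fold change -0.32, edgeR adjusted p = 0.265). The nuclear import receptors Ipo7 and Kpnb1 had 71.5 to 78.50 and 78.52 to 94.9 CPM (log2 fold change 0.19, edgeR adjusted p = 0.322) and 232 to 247 and 225 to 246 CPM (log2 fold change -0.05).

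The cytosolic family stood beside other large complexes as follows. Of 77 mitochondrial ribosomal protein genes, 8 were above 0, with a median of -0.17, 0 called by edgeR, 14 lower and 0 higher at an unadjusted p under 0.05, and 1 lower in DESeq2. Mrps15 had 56.1 to 60.5 and 40.2 to 50.7 CPM (log2 fold change -0.35, edgeR adjusted p = 0.113, DESeq2 adjusted p = 0.0410). Mrps18a had 38.3 to 40.8 and 28.1 to 33.7 CPM (log2 fold change -0.34, edgeR adjusted p = 0.118). Mrpl38, the most abundant of them, had 80.8 to 88.7 and 63.8 to 92.8 CPM (log2 fold change -0.13). Of 87 nuclear genes of oxidative phosphorylation, 18 were above 0 with a median of -0.10, and of 38 proteasome subunits 4 were above 0 with a median of -0.13. In these lists edgeR called 0, with 1 higher and 6 lower and 0 higher and 3 lower at an unadjusted p under 0.05, and DESeq2 called 1 lower and 0. An unadjusted p under 0.05 was reached by 18.2% of the mitochondrial ribosomal, 8.05% of the oxidative phosphorylation and 7.89% of the proteasome genes. Of all tested genes, 17.9% reached it (10.5% higher, 7.37% lower). In complex I of the respiratory chain, Ndufs7 had 65.6 to 71.3 and 54.0 to 60.1 CPM (edgeR adjusted p = 0.111, DESeq2 adjusted p = 0.0369). Ndufs3, also of complex I, had 70.3 to 78.5 and 48.8 to 67.3 CPM (edgeR adjusted p = 0.171). Atp5b, of the ATP synthase, had 1454 to 1556 and 1198 to 1411 CPM (edgeR adjusted p = 0.294). The log2 fold changes of the proteasome subunits Psmb1, Psmb5 and Psmd2 were -0.21, -0.28 and -0.15. The difference between these lists and the cytosolic ribosomal protein genes was not tested. Of 120 tested pseudogenes of members, 69 were above 0 with a median of 0.06, 0 called by edgeR or DESeq2, and 1 lower at an unadjusted p under 0.05. This was Rpl3-ps1, with 19.7 to 21.9 and 15.6 to 17.7 CPM (log2 fold change -0.32, edgeR adjusted p = 0.164), and the next smallest p was that of Rpl9-ps6 (log2 fold change 0.36, edgeR adjusted p = 0.283).

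**Figure D5:**
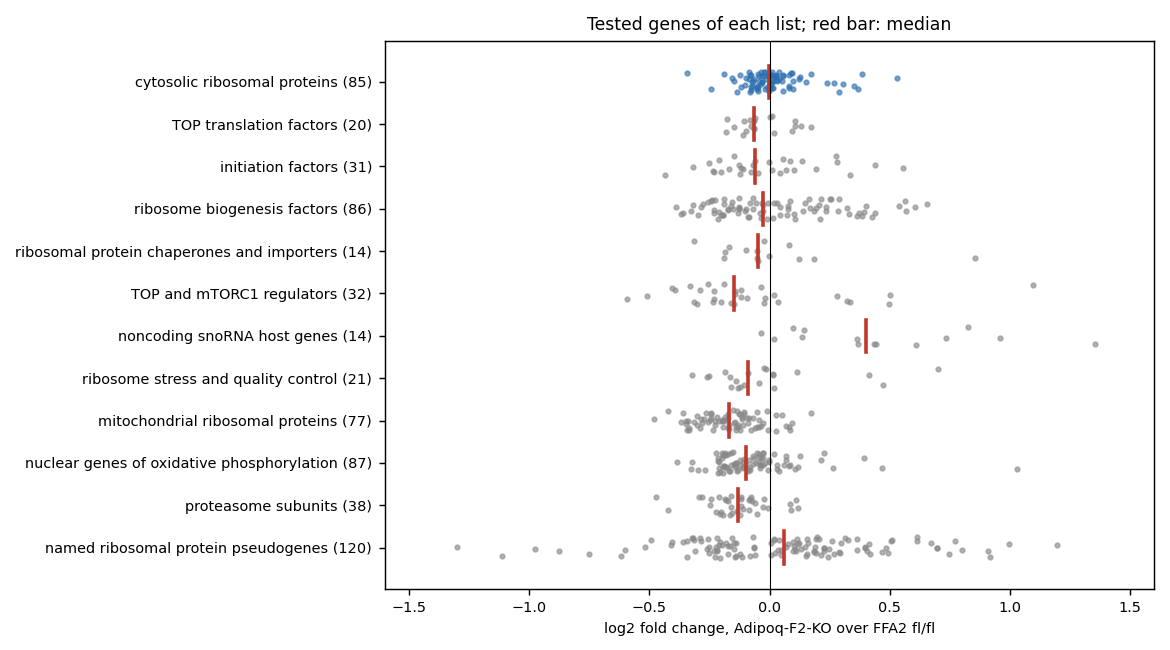
Log2 fold change of each tested gene (points) in the cytosolic ribosomal protein family (blue) and 11 other lists (grey), with the number tested in brackets and a red bar at the median. The ribosomal protein genes gather around 0, the mitochondrial ribosomal proteins have a median of -0.17 and the noncoding small nucleolar RNA hosts one of 0.40.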

How the data were processed

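Poly-A RNA of mature adipocytes from 3 control and 4 knockout mice, grouped by sample title, was sequenced with a stranded kit in pairs of 150 bp. The authors used Trimmomatic for trimming and STAR for alignment, and deposited whole-number featureCounts counts per gene, without normalization, with each gene's exonic length in bases. Versions, strand and overlap options are not given in the sources used here. The submitters' processing notes name GRCm38 and mm10, but only 2 of 89 members in the table overlap their GRCm38.p6 position, so the table's coordinates are not printed. Between 85.5% and 88.8% of low counts were even, as when both mates are counted, and a fragment then adds 2 counts. All columns of counts were used.

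Identifiers were matched to symbols for 52029 of 57010 rows. Counts were filtered (filterByExpr), scaled by TMM (0.968 to 1.02) and tested with edgeR 4.0.16 (glmQLFit, glmQLFTest, two-sided, genotype alone) in R 4.3.3 on the whole table, with Benjamini-Hochberg adjustment over 17039 genes and a threshold of 0.05. Standard errors and intervals come from the same fit. CPM are normalized, and levels are CPM per kb. No test was made on the family as a whole. The script was tested on simulated data. Depth was 30478997 to 39992605 counts, and floors cover counting error only. The labels do not say that numbers link mice across genotypes.

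Members and lists were chosen with earlier results of these data known. Named with values are the 5 largest and smallest log2 fold changes, the 10 smallest p-values, the 5 highest and lowest levels, untested members, P-stalk genes, Rpsa, Rps6, Rpl5, Rpl11, Rps27a, 8 paralog pairs and, per list, called genes or the 2 with the smallest p and the most abundant. Marker lists of cell types are given by counts and sums, with names only for called genes. Rpl13, Rpl21, Rpl26, Rpl38, Rps18, Rps20, Rps24, Krt8, Krt19, Prm2 and the partners of near-identical copies were named after their values were seen. Alternatives were DESeq2 1.42.0, RLE size factors, total counts, a filter of at least 1 count, mitochondrial genes and ENSMUSG00000119584 removed, counts halved, pseudogene counts added, a replicate block and leaving out each library. Levels per coding transcript were added after seeing the data. Start windows come from RefSeq (GRCm38.p6) and coding sequences from GENCODE M21. The list of ribosomal proteins outside the naming rule is not reported here as a whole.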

Additional observations from a re-analysis of the deposited data

Results flagged for a closer look

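Among the members named, the 4 Adipoq-F2-KO libraries were checked for a library far from the others, and Rpl5, the partner of 5S ribosomal RNA, was the only such value. Its highest Adipoq-F2-KO library, number 3, had 199.8 CPM, while the other 3 lay between 177.5 and 181.1 CPM, and the gap was 0.838 of the range. The FFA2 fl/fl libraries ranged from 174 to 194 CPM for Rpl5, and the group of 3 was not checked. About 1 in 20 such groups is marked by chance, and 42 values were checked.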

How the results depend on the processing

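Over 15 alternatives, 0 members were called lower in any, and 0 higher except in DESeq2 and under the filter of at least 1 count, which called 2 each (Rpl34 and Rps15a). The members' median log2 fold change stayed between -0.0369 and 0.0203, with 30 to 49 of 85 above 0. Of 585 values for 39 named members, 581 kept their side of the threshold and moved by less than a standard error where the sign changed (37 values, 11 members, none called), and 4 passed it.

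All genes called numbered 173, and 992 with DESeq2, 1403 with the filter of at least 1 count and 1 to 178 without a library. The members that did not overlap numbered 8, and 9 to 18 (10.6% to 21.2%) without a library. Of all tested genes, 21.2% to 28.2% did not overlap without a library. With total counts only, 5 members were separated upward and 6 downward (12.9% together). Of all tested genes 17.8% were separated then, 1415 upward and 1618 downward. With the filter of at least 1 count, 5 were separated upward and 2 downward (7.95% together), against 11.1% of all tested genes. The difference in the family's share was -0.0363 percentage points and 0.0474 without mitochondrial genes and ENSMUSG00000119584. Per kb of a coding transcript, 6 of the 10 highest members were shared.

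Deviations from the genotype means had correlations of 0.0743, -0.0264 and -0.0404 between same-numbered libraries. Those between different-numbered libraries ran from -0.131 to 0.123. These values showed no pairing by number, but with so few libraries they cannot exclude a link. With a replicate block 0 members were called, their median was -0.0136, 224 genes were called, and the median of ribosome biogenesis factors was 0.0184 instead of -0.0273. Without single libraries, the median of ribosome stress and quality control genes lay between -0.0985 and -0.0193 and that of pseudogenes between 0.00173 and 0.0888. For other moves the cause was not tested. Low counts of Rpl24 and Rps10 limit what can be seen for them.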
